A study of Mus musculus with 15 samples.

Results

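The D-type cyclins, the cyclin-dependent kinase (CDK) inhibitors and the retinoblastoma family decide whether a cell enters the cell cycle or leaves it. A list of 10 of these genes was matched by symbol to both deposited gene sets, and 9 were present in each: *Ccnd1*, *Ccnd2*, *Ccnd3*, *Cdkn1a*, *Cdkn1b*, *Cdkn2c*, *Rb1*, *Rbl1* and *Rbl2*. They are 9 of the 11041 genes that both sets hold. *Cdkn1c*, which encodes the inhibitor p57, was listed in neither set.

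The 15 samples all came from 21EM15, an immortalized line of mouse lens epithelial cells labelled WT throughout, and their RNA was profiled from its 3′ end. There were 4 samples of sub-confluent 2D cultures on plastic, 4 of 3D spheroids, each pooled from many spheroids grown in non-adhesive wells, and 4 internal and 3 external samples cut out of spheroids. These regions were isolated by laser capture microdissection from cryosections of pooled spheroids, and the intermediate region was not sampled. All groups share the same cell line and serum-containing medium. By the study's methods, spheroids were grown for longer than a dish usually takes to reach the density of the 2D cultures. Time in culture and culture format therefore cannot be told apart in 3D against 2D. By the study's methods each replicate had its own dish or its own pool of spheroids, but no source used here says that these were grown as independent experiments, so that p-values measure the spread between these samples, which may be technical.

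In the eye lens, epithelial cells divide near the equator, leave the cell cycle and elongate into fibre cells. D-type cyclins activate CDK4 and CDK6, which phosphorylate the retinoblastoma (pocket) proteins RB1, p107 (*Rbl1*) and p130 (*Rbl2*), and phosphorylation releases the E2F transcription factors that drive entry into DNA synthesis. The Cip/Kip inhibitors p21 (*Cdkn1a*), p27 (*Cdkn1b*) and p57 (*Cdkn1c*) and the INK4 inhibitor p18 (*Cdkn2c*) restrain these kinases. In lens fibre cells, p27 and p57 are known to act in the exit from the cell cycle, and the loss of RB1 is known to let fibre cells divide.

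Promoters of *Rbl1*, *Cdkn1b* and *Rbl2* are shown because *Rbl1* fell in 3D while *Cdkn1b* rose in both comparisons and *Rbl2* rose in the internal region. RefSeq promoter sequences on GRCm38.p6 were matched for 6 of the 9 genes, and *Ccnd1*, *Ccnd2* and *Rb1* had no match. The 170 bases before the start are printed 5′ to 3′ on the strand of the gene, for *Rbl1* at chr2:157204535-157204704 (minus strand), for *Cdkn1b* at chr6:134920231-134920400 (plus strand) and for *Rbl2* at chr8:91069887-91070056 (plus strand). Capitals mark the E2F letters TTTCGCGC in *Rbl1* and the CCAAT letters in *Cdkn1b*.
Rbl1: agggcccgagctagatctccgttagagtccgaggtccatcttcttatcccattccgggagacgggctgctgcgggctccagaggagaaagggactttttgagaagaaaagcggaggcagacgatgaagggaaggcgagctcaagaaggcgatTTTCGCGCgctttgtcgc
Cdkn1b: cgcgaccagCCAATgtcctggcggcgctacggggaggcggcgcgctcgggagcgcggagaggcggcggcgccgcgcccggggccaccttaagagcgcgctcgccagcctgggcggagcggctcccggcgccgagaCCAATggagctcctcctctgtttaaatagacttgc
Rbl2: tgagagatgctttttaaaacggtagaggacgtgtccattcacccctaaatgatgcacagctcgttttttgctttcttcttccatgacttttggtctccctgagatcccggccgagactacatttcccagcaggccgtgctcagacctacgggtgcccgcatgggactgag

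The letters TTTCGCGC, searched on both strands, were present in 0.177% of 32851 promoter windows of this length, and among the matched genes in *Rbl1* alone, 18 bases before the start. The related E2F letters TTTGGCGC and TTTCCCGC were present in 0.292% and 0.667% of the windows and in none of the 6 matched genes. The letters CCAAT were present in 26.6% of the windows and in *Cdkn1b* and *Ccnd3*, and in *Cdkn1b* they occurred 161 and 35 bases before the start. A GC box (GGGCGG, 29.8% of the windows) was held by 4 of the 6 matched genes, *Ccnd3*, *Cdkn1a*, *Cdkn2c* and *Cdkn1b*, in the last of these 61 bases before the start. The forkhead core GTAAACA, found in 2.07% of the windows, was in none of the matched genes. The *Rbl2* window held none of the letters searched and had the lowest share of G and C of those printed, 51.8% against 57.1% in *Rbl1* and 72.9% in *Cdkn1b*. These matches describe the sequence, and binding was not measured.

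Values are log2 CPM, in which the reads of a gene are set against all reads of the sample on a log2 scale, normalised separately for the cultures and for the regions. Between 7305053 and 9362587 reads were counted per 2D or 3D sample, and between 4044230 and 11702504 per region sample, so that 3 reads correspond to 0.312 to 0.409 CPM in the cultures and 0.248 to 0.802 CPM in the regions. Of 10 proliferation markers, 9 fell in 3D against 2D and 9 fell in internal against external samples, and their summed level was 857 to 1005 CPM in 3D against 1489 to 2959 CPM in 2D, and 65.8 to 116 CPM in internal against 747 to 958 CPM in external samples. Lens epithelium markers were listed for 4 of 10 genes (*Pax6*, *Six3*, *Cdh2* and *Cryab*, but not *Foxe3*), and their summed level was 1406 to 1661 CPM in 3D against 877 to 1276 CPM in 2D, and 1020 to 1315 CPM in internal against 794 to 931 CPM in external samples. Of these 4, *Pax6* and *Six3* rose and *Cdh2* fell in 3D, and *Pax6* and *Cryab* rose and none fell in the internal region. *Cryab* is also known to be abundant in fibre cells. Few fibre markers were listed, 3 of 22 in the cultures and 4 in the regions, and their summed level was 146 to 224 CPM in 3D against 50.6 to 88.9 CPM in 2D, and 402 to 446 CPM in internal against 145 to 183 CPM in external samples, where 1 of 3 rose in 3D, 3 of 4 rose in the internal region and none fell. The defining fibre crystallins of the gamma class were not listed. Mesenchymal markers were listed for 9 of 10 genes in the cultures, with summed levels of 8699 to 11486 CPM in 3D against 7507 to 12345 CPM in 2D that overlapped, but 4 of the 9 rose and none fell in 3D, with a median log2 fold change of 0.81. In the regions 2 of 8 rose and 2 fell, with a median of -0.03 and sums of 4791 to 6886 CPM in internal against 5299 to 7255 CPM in external samples. Of 7 blood and endothelial markers, *Cd68* alone was listed, at a highest level of 6.31 CPM. Reads of mitochondrially encoded genes made up 4.02% to 6.23% of 3D reads against 2.27% to 3.72% of 2D reads, and 5.42% to 6.98% of internal against 2.53% to 3.60% of external reads. These shares and the sums of the proliferation, epithelium and fibre markers moved with both comparisons, as did some mesenchymal markers, and their part in the results was not tested. In such bulk samples, fewer cells of a type and less RNA per cell cannot be told apart.

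To find out how the regulators of the cell cycle differed between the cultures, 3D spheroids were compared with 2D cultures. *Cdkn1b* rose in 3D spheroids, and *Ccnd1* and *Rbl1* fell. The other 6 genes did not pass the test, which was limma's two-sided test with Benjamini-Hochberg adjustment over all 11677 genes at an adjusted p of 0.05. Over all genes, 9.74% rose and 9.25% fell. Under the stricter thresholds (adjusted p of 0.01 and a log2 fold change of 1), *Cdkn1b* alone was called, against 2.92% of all genes called higher and 1.51% called lower. The groups did not overlap for the same 3 genes, 1 higher and 2 lower, where 12.0% of all genes were apart in each direction and 24.0% in either. The median log2 fold change of the 9 genes was 0.05, beside -0.03 over all genes.

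To find out how they differed within a spheroid, the internal region was compared with the external one. The external group lacks a further sample, which differed from the others and was left out by the authors. *Cdkn1b*, *Rb1* and *Rbl2* rose in the internal region and *Ccnd1* fell, and the other 5 genes did not pass the test. Over all 11299 genes, 9.58% rose and 12.1% fell. Under the stricter thresholds, *Rb1* and *Rbl2* were called higher and *Ccnd1* lower, against 3.27% and 4.35% of all genes. The groups did not overlap for 4 genes that were higher (*Cdkn1a*, *Cdkn1b*, *Rb1* and *Rbl2*) and 2 that were lower (*Ccnd1* and *Ccnd2*), where 13.5% and 15.4% of all genes were so, and 29.0% in either direction. The median log2 fold change of the 9 genes was 0.10, beside 0.04 over all genes.

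**Figure D1:**
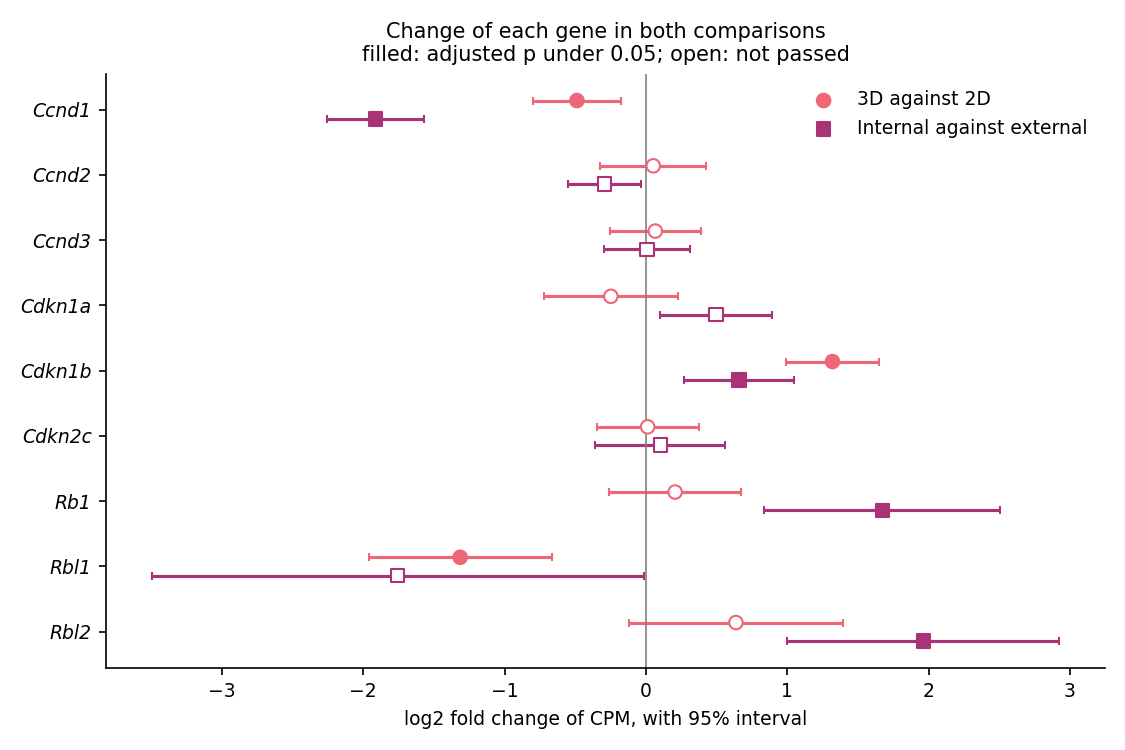
Log2 fold change of CPM (x axis) of each of the 9 genes (y axis) in 3D against 2D (circles) and internal against external samples (squares), with 95% intervals; filled symbols passed an adjusted p of 0.05. *Cdkn1b* lay to the right and *Ccnd1* to the left in both comparisons, while *Rb1* and *Rbl2* passed in the regions and *Rbl1* in the cultures.

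*Ccnd1* encodes cyclin D1, the D-type cyclin that couples growth factor signals to CDK4 and CDK6. It is encoded on the minus strand of chromosome 7 (chr7:144929931-144939925, GRCm38), and it was among the most abundant RNAs, above 99.3% of the genes of the cultures in mean level. Its level was 10.68, 10.74, 10.56 and 10.81 log2 CPM in the 2D samples and 10.51, 10.21, 10.10 and 10.01 log2 CPM in the 3D samples. Every 3D sample was below every 2D sample, although 3D replicate 1 came close to the lowest 2D sample. The mean fell from 10.70 ± 0.11 to 10.21 ± 0.22 log2 CPM (SD, n = 4 each). This is a log2 difference of -0.49 (SE 0.14, 95% interval -0.80 to -0.18) or 1.40-fold, with an adjusted p of 0.0364 in limma. This call was lost in 7 of the 8 fits that left out 1 sample, and was kept without 3D replicate 1 (limma's adjusted p of 0.0263 to 0.108 over the 8 fits). It was also lost with median scaling (adjusted p of 0.0611 in limma), without the variance trend (adjusted p of 0.0632 in limma) and without both samples numbered 2, an alternative chosen after seeing the data (adjusted p of 0.0883 in limma).

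Within the spheroids the difference in *Ccnd1* exceeded the spread between samples. Its level was 10.05, 9.85 and 9.63 log2 CPM in the external samples and 7.85, 8.0, 8.37 and 7.51 log2 CPM in the internal samples. The lowest external sample was above the highest internal one. In linear units, the mean was 925 ± 137 CPM (SD, n = 3) in external and 249.5 ± 61.6 CPM (SD, n = 4) in internal samples. This gave a log2 fold change of -1.91 (SE 0.17, 95% interval -2.25 to -1.57), or 3.76-fold lower, with an adjusted p of 1.76e-08 in limma, and it passed in all 7 fits that left out 1 sample. The reads behind these values were 2955 to 6456 per external and 1439 to 2216 per internal sample.

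*Ccnd2* encodes cyclin D2 and lies on chromosome 6 (chr6:127125162-127152193, minus strand). Its level was 9.17, 9.44, 9.32 and 8.74 log2 CPM in 2D and 9.14, 9.47, 9.27 and 9.0 log2 CPM in 3D samples, and the groups overlapped. The difference of 0.05 on the log2 scale (95% interval -0.32 to 0.43) had an adjusted p of 0.858 in limma. In the regions the level was 9.89, 9.97 and 9.87 log2 CPM in external and 9.76, 9.65, 9.57 and 9.49 log2 CPM in internal samples. All internal samples were below the external ones, but the log2 fold change of -0.29 (SE 0.13) did not pass the test (adjusted p of 0.0995 in limma). It passed when each sample was centred on its median (adjusted p of 0.0473 in limma).

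*Ccnd3*, which encodes cyclin D3, lies on chromosome 17 (chr17:47505051-47599691, plus strand) and ran from 6.96 to 7.46 log2 CPM in 2D and from 7.24 to 7.62 log2 CPM in 3D samples. It ran from 7.65 to 7.90 log2 CPM in external and from 7.61 to 8.07 log2 CPM in internal samples. The groups overlapped in both comparisons, and the 95% intervals of the log2 fold change were -0.26 to 0.39 (adjusted p of 0.785 in limma) and -0.30 to 0.31 (adjusted p of 0.983). *Ccnd3* shares sequence at its 3′ end with 1 pseudogene, *Ccnd3-ps*, so that its reads may be less certain. No such sharing was found for the other genes.

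**Figure D2:**
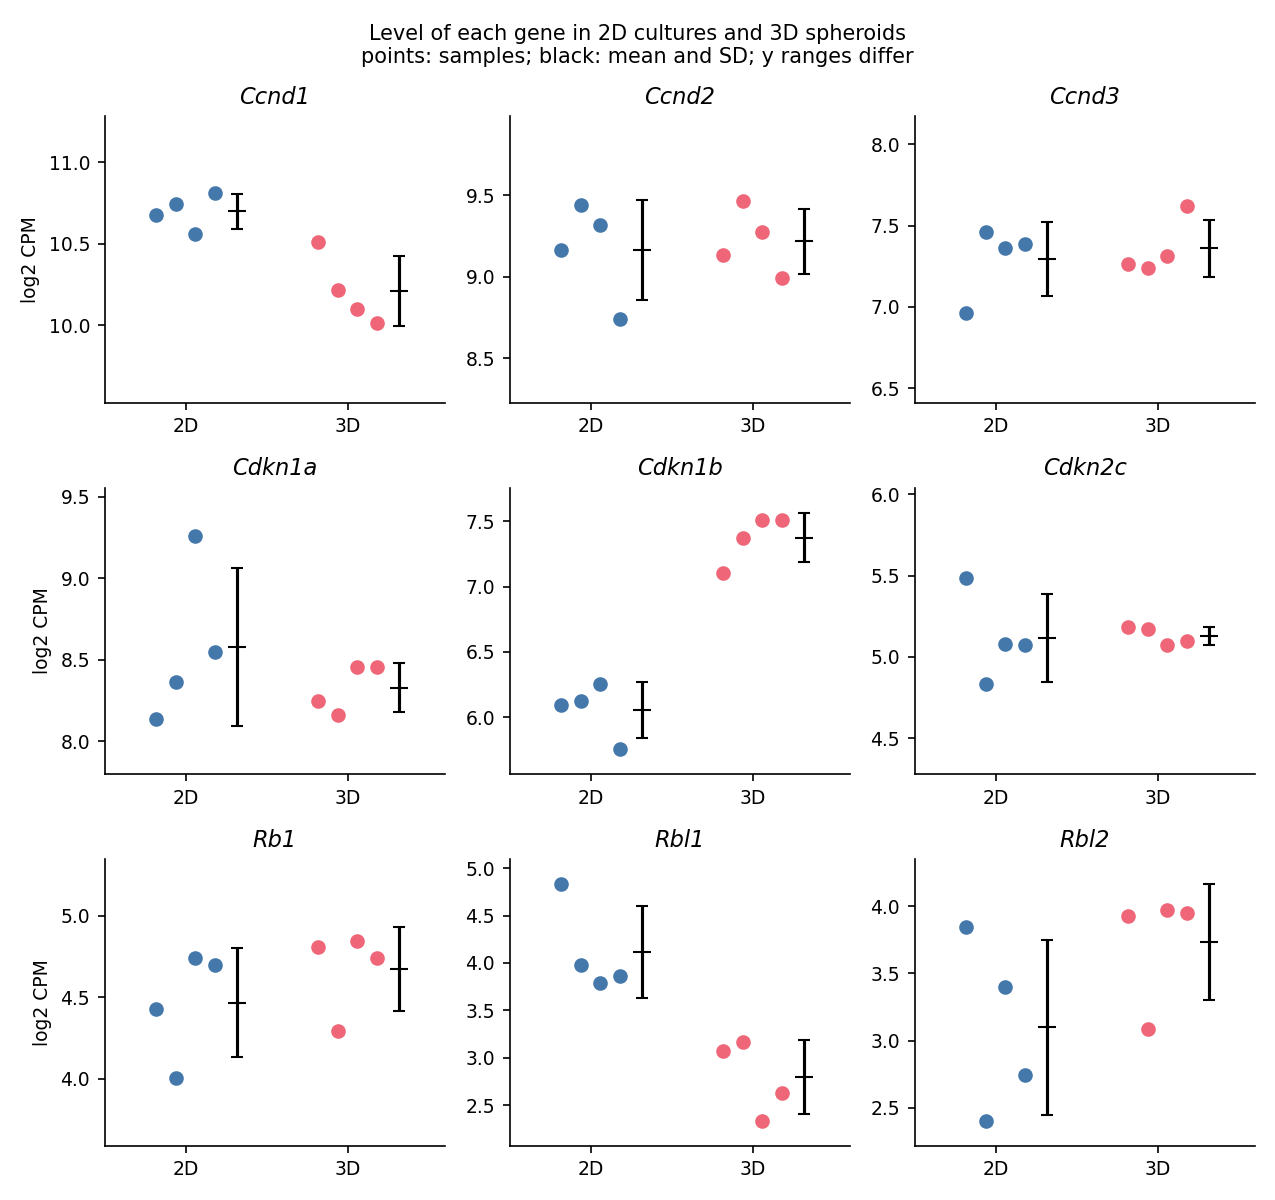
Level of each gene (y axis, log2 CPM, ranges differ between panels) in the 4 samples of 2D cultures and the 4 of 3D spheroids, with the mean and SD in black. *Cdkn1b* was higher and *Ccnd1* and *Rbl1* lower in every 3D than in every 2D sample, and the groups of the other 6 genes overlapped.

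Since the 3′ reads do not scale with transcript length, the reads of the 3 D cyclins were set beside each other within a sample, as a description with no test. How well each 3′ end is captured and uniquely mapped may differ between genes and was not measured, so that the shares are shares of reads. *Ccnd1* made up 65.3% to 75.1% of the D cyclin reads in 2D, 58.0% to 67.1% in 3D, 41.0% to 47.2% in external and 15.6% to 25.1% in internal samples. *Ccnd2* made up 17.9% to 27.6%, 25.8% to 34.6%, 42.2% to 48.6% and 58.0% to 66.1% in the same order. *Ccnd1* thus had the most reads of the D cyclins in every 2D and 3D sample and *Ccnd2* in every internal sample, while in the external samples both lay close together. The difference in level between *Ccnd1* and *Ccnd2*, in log2 units, was 1.24 to 2.07 in 2D, 0.75 to 1.38 in 3D, -0.25 to 0.16 in external and -1.98 to -1.21 in internal samples. Between 5728 and 22989 reads stood behind each set of shares, and the widest 95% Wilson interval of a share was 2.56 percentage points, which covers counting error only. The summed level of the 3 D cyclins was 2309 to 2585 CPM in 2D and 1740 to 2175 CPM in 3D samples. It was 1929 to 2253 CPM in external and 1168 to 1315 CPM in internal samples. The shares of the cultures and of the regions came from RNA isolated with different kits and were not compared by a test.

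**Figure D3:**
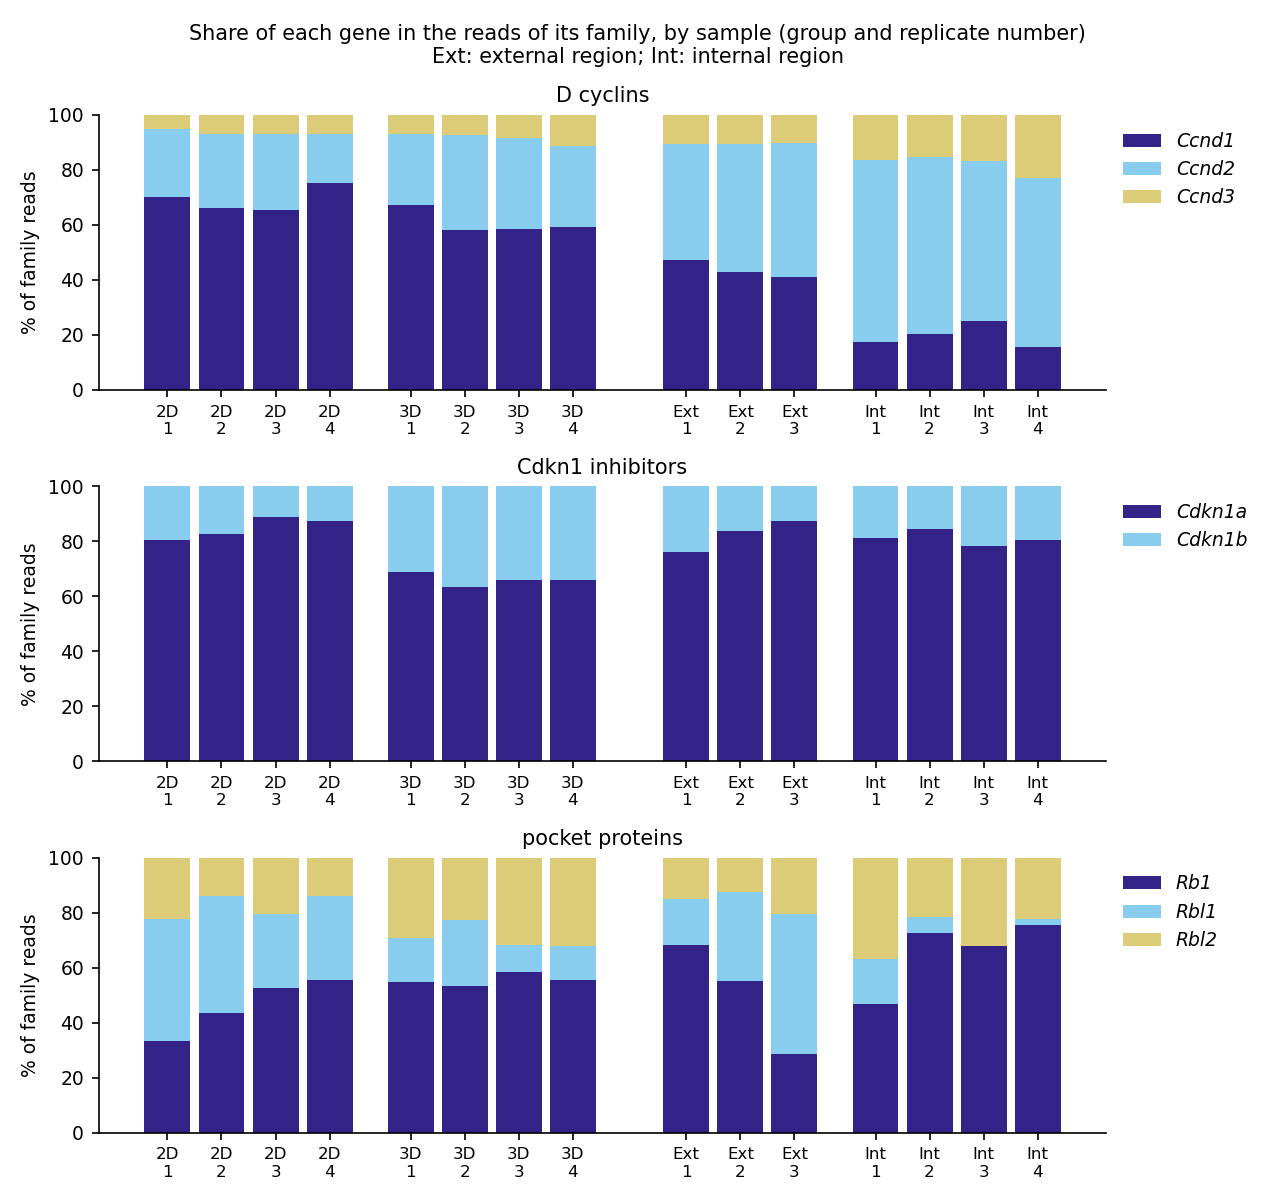
Share of each gene (y axis, % of family reads) among the reads of the 3 D cyclins, of *Cdkn1a* and *Cdkn1b*, and of the 3 pocket protein genes, in each sample (x axis, group and replicate number). *Ccnd1* took the largest share of D cyclin reads in all 2D and 3D samples and *Ccnd2* in all internal samples, and the *Cdkn1b* share was 31.2% to 36.7% in 3D against 11% to 19.5% in 2D samples.

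*Cdkn1b* encodes p27, which binds and inhibits cyclin-CDK complexes in cells that leave the cycle. It lies on the plus strand of chromosome 6 (chr6:134920401-134925513), and its promoter is printed above. Its level was 6.09, 6.13, 6.25 and 5.75 log2 CPM in 2D and 7.11, 7.38, 7.51 and 7.51 log2 CPM in 3D samples. Each 3D sample was above all 2D samples, with 1078 to 1469 reads against 510 to 650. The mean rose from 6.06 ± 0.21 to 7.38 ± 0.19 log2 CPM (SD, n = 4 each). This is a log2 difference of 1.32 (SE 0.15, 95% interval 0.99 to 1.65) or 2.50-fold, with an adjusted p of 0.000727 in limma. The call was kept in all 8 fits that left out 1 sample.

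In the regions *Cdkn1b* was 5.55, 5.91 and 5.56 log2 CPM in external and 6.39, 6.09, 6.50 and 6.35 log2 CPM in internal samples. All internal samples were above the external ones. The log2 fold change was 0.66 (SE 0.19, 95% interval 0.27 to 1.05), or 1.58-fold, with an adjusted p of 0.0137 in limma. The call was lost without external replicate 3 (adjusted p of 0.0524 in limma), without the variance trend (adjusted p of 0.0558 in limma) and when replicate numbers were blocked (adjusted p of 0.0618 in limma). *Cdkn1b* lay below *Ccnd1* in every sample, and the gap between their levels was narrower in 3D than in 2D and in internal than in external samples. The level of *Cdkn1b* minus that of *Ccnd1*, in log2 units, was -5.06 to -4.30 in 2D, -3.41 to -2.50 in 3D, -4.50 to -3.94 in external and -1.91 to -1.16 in internal samples.

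*Cdkn1a* encodes p21, an inhibitor known as a target of p53. It lies on chromosome 17 (chr17:29090976-29100727, plus strand). Its level was 8.14, 8.37, 9.26 and 8.55 log2 CPM in 2D and 8.25, 8.16, 8.46 and 8.45 log2 CPM in 3D samples, where 2D replicate 3 was the highest and the groups overlapped. A log2 fold change of -0.25 did not pass (95% interval -0.72 to 0.23, adjusted p of 0.449 in limma). In the regions it was 7.22, 8.27 and 8.34 log2 CPM in external and 8.48, 8.52, 8.34 and 8.40 log2 CPM in internal samples. External replicate 1 was low, and the other external samples lay just below the internal ones. The log2 fold change was 0.49 (SE 0.19) with an adjusted p of 0.0701 in limma, and it was 0.13 without external replicate 1 (adjusted p of 0.549 in limma). The test was passed without external replicate 2 or external replicate 3 (limma's adjusted p of 0.047 and 0.0201), in fits where external replicate 1 was 1 of the remaining pair.

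Of the reads of *Cdkn1a* and *Cdkn1b* together, *Cdkn1b* held 11% to 19.5% in 2D and 31.2% to 36.7% in 3D samples, with no overlap. In the regions it held 12.7% to 23.8% in external and 15.6% to 21.7% in internal samples, and these overlapped. The widest 95% Wilson interval was 4.84 percentage points. *Cdkn1a* thus had more reads than *Cdkn1b* in every sample.

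*Cdkn2c* encodes p18, an inhibitor of CDK4 and CDK6, on chromosome 4 (chr4:109660876-109667189, minus strand). It ran from 4.83 to 5.49 log2 CPM in 2D, 5.07 to 5.18 log2 CPM in 3D, 5.03 to 5.40 log2 CPM in external and 5.07 to 5.45 log2 CPM in internal samples. The log2 fold changes were 0.01 (95% interval -0.35 to 0.37, adjusted p of 0.966 in limma) and 0.10 (95% interval -0.36 to 0.56, adjusted p of 0.785). Differences beyond these intervals were not seen, and smaller ones could not be resolved with these samples.

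**Figure D4:**
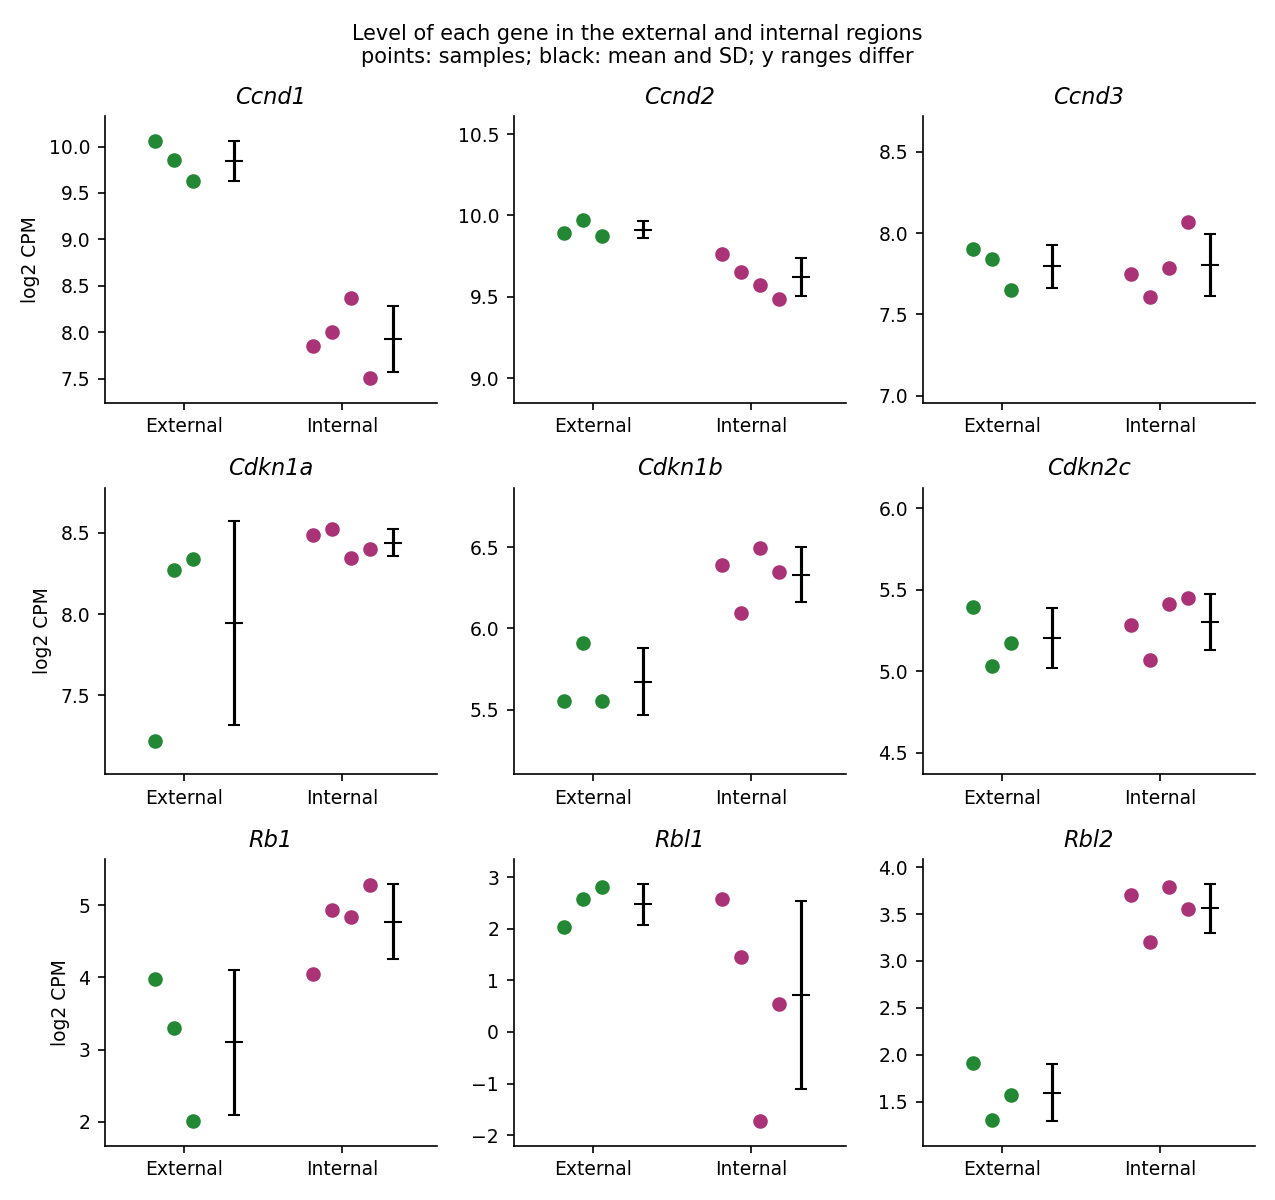
Level of each gene (y axis, log2 CPM, ranges differ between panels) in the 3 external and 4 internal samples, with the mean and SD in black. *Ccnd1* and *Ccnd2* were lower, and *Cdkn1a*, *Cdkn1b*, *Rb1* and *Rbl2* were higher, in every internal than in every external sample. Of these, *Ccnd2* and *Cdkn1a* did not pass the test. In 1 internal sample there was no *Rbl1* read.

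*Rb1* encodes the retinoblastoma protein, on chromosome 14 (chr14:73183673-73325822, minus strand), where 2 annotated genes, *Gm17233* and *Mir687*, overlap it on the same strand. Its level was 4.43, 4.01, 4.74 and 4.70 log2 CPM in 2D and 4.81, 4.29, 4.85 and 4.74 log2 CPM in 3D samples, which overlapped. Their log2 fold change was 0.21 (95% interval -0.26 to 0.67, adjusted p of 0.527 in limma). In the regions it was 3.98, 3.30 and 2.02 log2 CPM in external and 4.04, 4.93, 4.84 and 5.28 log2 CPM in internal samples. The external samples were spread widely, and the highest of them was just below the lowest internal sample. The mean rose from 3.10 ± 1.0 (SD, n = 3) to 4.77 ± 0.52 log2 CPM (SD, n = 4), a log2 fold change of 1.67 (SE 0.40, 95% interval 0.84 to 2.51) or 3.19-fold, with an adjusted p of 0.00396 in limma. The external values rest on 94, 44 and 14 reads and the internal ones on 108 to 465 reads. The call was kept in all 7 fits that left out 1 sample, in which the log2 fold change ran from 1.13 to 2.11, and was lost without the variance trend (adjusted p of 0.0654 in limma).

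*Rbl1* encodes p107, the pocket protein that is known to be abundant in cycling cells and whose gene is known as an E2F target. It lies on chromosome 2 (chr2:157145893-157204534, minus strand), just after the promoter printed above. Its level was 4.83, 3.98, 3.79 and 3.86 log2 CPM in 2D and 3.07, 3.17, 2.33 and 2.63 log2 CPM in 3D samples. Every 3D sample was below every 2D sample, with 37 to 71 reads against 114 to 270. The mean fell from 4.12 ± 0.49 to 2.80 ± 0.39 log2 CPM (SD, n = 4 each). This is a log2 difference of -1.31 (SE 0.29, 95% interval -1.96 to -0.67) or 2.49-fold, with an adjusted p of 0.0132 in limma. The call was kept in all 8 fits that left out 1 sample.

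In the regions *Rbl1* was near the limit of the depth. There were 23, 26 and 25 reads in the external samples and 38, 21, 0 and 14 reads in the internal samples. The levels were 2.03, 2.58 and 2.80 log2 CPM and 2.59, 1.45, -1.72 and 0.55 log2 CPM, and the groups overlapped. For internal replicate 3, the shallowest internal sample, a count of 0 allows up to 0.687 CPM. The log2 fold change of -1.76 (SE 0.84, 95% interval -3.50 to -0.02) did not pass the test (adjusted p of 0.145 in limma), and without internal replicate 3 it was -0.94. A decrease of the size seen in the cultures lay within this interval.

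*Rbl2* encodes p130, the pocket protein that is known to prevail in quiescent cells. It lies on chromosome 8 (chr8:91070057-91123844, plus strand). Its level was 3.85, 2.40, 3.40 and 2.74 log2 CPM in 2D and 3.92, 3.09, 3.97 and 3.95 log2 CPM in 3D samples. The groups overlapped, and 3D replicate 2 lay apart from the other 3D samples. *Rbl2* had a log2 fold change of 0.64 (SE 0.34, 95% interval -0.12 to 1.39) with an adjusted p of 0.218 in limma. In the regions *Rbl2* was 1.91, 1.31 and 1.57 log2 CPM in external and 3.71, 3.20, 3.79 and 3.55 log2 CPM in internal samples. Every internal sample was above every external one, with 59 to 138 reads against 10 to 21. The mean rose from 1.6 ± 0.30 (SD, n = 3) to 3.56 ± 0.26 log2 CPM (SD, n = 4), a log2 fold change of 1.96 (SE 0.46, 95% interval 1.0 to 2.92) or 3.90-fold, with an adjusted p of 0.00345 in limma. The call was kept in all 7 fits that left out 1 sample.

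The pocket protein genes were the least abundant of the 9 genes, and their shares, which are descriptions with no test, have wide counting errors. *Rbl1* made up 27% to 44.4% of the pocket protein reads in 2D and 9.84% to 24.1% in 3D samples, which did not overlap. It made up 16.7% to 51.0% in external samples and up to 16.5% in internal samples. *Rbl2* made up 13.9% to 22.2% in 2D, 22.7% to 31.9% in 3D, 12.5% to 20.4% in external and 21.4% to 36.8% in internal samples. The share of *Rbl2* thus lay higher in every 3D than in every 2D sample and in every internal than in every external sample, but by little. The nearest samples were 2D replicate 1 (95% Wilson interval 19.1% to 25.7%) and 3D replicate 2 (18.3% to 27.8%). In the regions they were external replicate 3 (11.5% to 33.6%) and internal replicate 2 (17.5% to 26.0%). These intervals overlap, so that counting error alone covers both gaps. *Rb1* shares were 33.4% to 55.4% in 2D and 53.2% to 58.5% in 3D samples, and 28.6% to 68.1% in external and 46.8% to 75.4% in internal samples, with overlap in both. Only 49 to 617 reads stood behind each set of shares, and the widest 95% Wilson interval was 27 percentage points. The level of *Rbl2* minus that of *Rbl1*, in log2 units, was -1.58 to -0.39 in 2D, -0.08 to 1.64 in 3D, -1.27 to -0.12 in external and 1.12 to 5.51 in internal samples.

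The other genes of the pathway were taken from 7 lists. Of the 81 measured in the cultures, 3 rose and 19 fell in 3D against 2D, and of the 79 measured in the regions, 7 rose and 17 fell in internal against external samples, beside the shares of all genes given above. When replicate numbers were blocked, 5 rose in 3D and 10 fell in internal samples. Under that block, 1343 of all 11677 genes rose in 3D and 1064 of all 11299 genes fell in internal samples. Among 9 G1 kinases, their partners and E cyclins, 3 fell and 6 did not pass in 3D, with a median log2 fold change of -0.59. *Ccne2*, an E cyclin that activates CDK2, fell by 1.24 on the log2 scale (SE 0.22, adjusted p of 0.00466 in limma). *Cdc25a*, a phosphatase that activates CDKs, fell by 0.96 (SE 0.20, adjusted p of 0.00914 in limma), and *Cdk4*, the partner of the D cyclins, fell by 0.55 (SE 0.12, adjusted p of 0.0108 in limma). In the regions 3 of 8 fell and 5 did not pass, with a median of -0.46. *Ccne2* had 0 to 5 reads in internal against 89 to 217 reads in external samples (adjusted p of 3.59e-06 in limma). Both kinases of the D cyclins fell, *Cdk6* by 1.02 (SE 0.17, adjusted p of 0.000108 in limma) and *Cdk4* by 0.85 (SE 0.20, adjusted p of 0.00288 in limma). Of 4 other genes listed with the CDK inhibitors, *Cdkn2a* and *Cdkn2b* were not listed in the data, *Cdkn2d* did not pass in either comparison, and *Cdkn3* fell in both. *Cdkn3* encodes a CDK-associated phosphatase, and it fell by 0.86 in 3D (SE 0.16, adjusted p of 0.00697 in limma) and had 0 to 6 reads in internal against 75 to 141 reads in external samples (adjusted p of 6.11e-06 in limma).

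E2F factors pair with DP factors, and the classical E2Fs are bound by pocket proteins. Of 10 E2F and DP genes, 4 fell and 6 did not pass in each comparison, with medians of -0.63 and -0.44, the latter unchanged with a gene at 0 reads set to its bound. *E2f7* and *E2f8*, atypical repressor E2Fs that do not bind pocket proteins and are themselves induced in cycling cells, fell in 3D by 1.31 (SE 0.32, adjusted p of 0.0172 in limma) and 1.90 (SE 0.37, adjusted p of 0.00748 in limma). *E2f2*, an activator E2F, fell by 0.81 (SE 0.19, adjusted p of 0.0151 in limma). *E2f7* had 0 reads in all 4 internal samples against 24 to 60 reads in the external ones, at least 17.4-fold lower when 3 reads per internal sample are taken as the limit (adjusted p of 0.00107 in limma). *E2f8* had 0 to 10 reads in internal against 34 to 80 reads in external samples (adjusted p of 0.000994 in limma), and *Tfdp1*, the main dimer partner of the E2Fs, fell by 1.35 (SE 0.48, adjusted p of 0.0477 in limma). The MuvB core forms the DREAM repressor with p107 or p130 and an activator with MYBL2 or FOXM1. Of 7 genes of the core and these partners, 4 fell in 3D, the core subunits *Lin9* and *Lin54* and both partners, while in internal samples the 2 partners fell and no core subunit passed, and the medians were -1.08 and -0.41. *Mybl2* fell by 1.42 in 3D (SE 0.36, adjusted p of 0.0206 in limma) and *Foxm1* by 1.30 (SE 0.23, adjusted p of 0.00433 in limma). *Lin9*, a subunit of the core, fell by 1.20 (SE 0.32, adjusted p of 0.0268 in limma) in 3D and had a log2 fold change of -0.09 in the regions. *Foxm1* had 2 to 8 reads in internal against 60 to 90 reads in external samples (adjusted p of 0.000135 in limma), and *Mybl2* had 0 to 31 against 12 to 70 reads, with every internal level in log2 CPM below the external ones (adjusted p of 0.024 in limma).

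**Figure D5:**
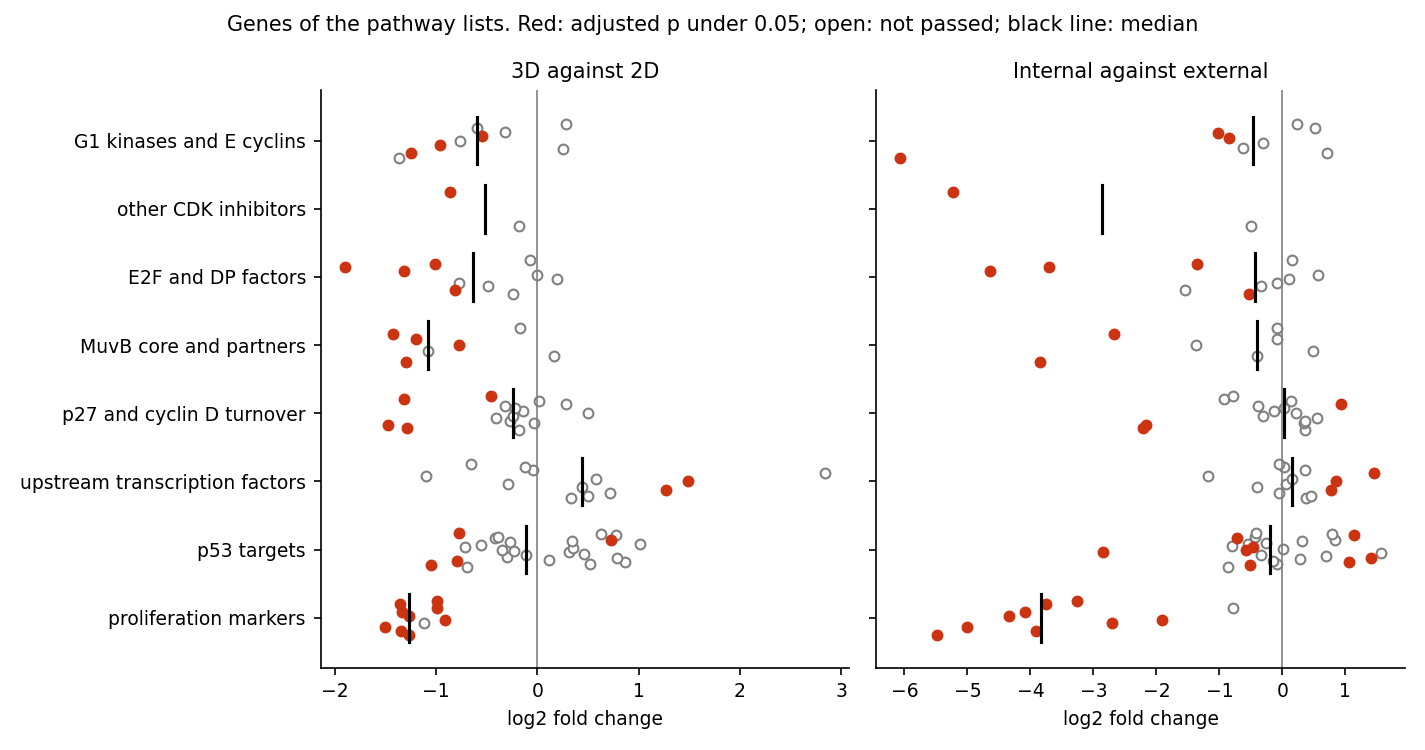
Log2 fold change (x axis) of each gene of the pathway lists and of the proliferation markers (y axis) in 3D against 2D (left) and internal against external samples (right); red points passed an adjusted p of 0.05, and black lines are medians. The points of the E2F, MuvB and proliferation lists that passed lie to the left in both panels, and those of the upstream transcription factors to the right; folds of genes with few internal reads depend on the prior count.

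Among 15 genes of the turnover of p27 and the D cyclins, 4 fell and 11 did not pass in 3D, with a median of -0.24, while in the regions 1 rose and 2 fell, with a median of 0.03. The genes that fell include *Cks1b* and *Cks2*, of which CKS1B is the cofactor that lets the SKP2 ubiquitin ligase recognise p27. *Cks1b* fell by 1.29 in 3D (SE 0.26, adjusted p of 0.00808 in limma) and by 2.21 in the internal region (SE 0.22, adjusted p of 1.9e-07 in limma). *Cks2* fell by 1.48 (SE 0.33, adjusted p of 0.0137 in limma) and by 2.17 (SE 0.62, adjusted p of 0.0135 in limma). *Skp2* itself fell by 1.31 in 3D and had a log2 fold change of -0.92 that did not pass in the regions. *Rnf123*, a subunit of a second ligase for p27, rose by 0.94 in the internal region (SE 0.25, adjusted p of 0.00766 in limma). *Ubac1*, the other subunit of that ligase, fell by 0.45 in 3D (SE 0.14, adjusted p of 0.0448 in limma) and had a log2 fold change of -0.79 in the regions (adjusted p of 0.0532 in limma). These RNA levels do not measure the stability of either protein.

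Of 13 transcription factors known to act on the genes of these regulators, 2 rose and none fell in 3D, with a median of 0.44, while in the regions 3 rose and none fell, with a median of 0.16. *Mxd4*, an antagonist of MYC, rose by 1.48 (SE 0.25, adjusted p of 0.00386 in limma) in 3D and by 0.85 (SE 0.18, adjusted p of 0.0016 in limma) in the internal region. *Hes1*, a repressor downstream of Notch, rose by 1.27 (SE 0.27, adjusted p of 0.0101 in limma) and by 0.77 (SE 0.21, adjusted p of 0.00912 in limma). *Prox1*, which is required for fibre cells to leave the cell cycle in the lens, rose by 1.45 in the internal region (SE 0.14, adjusted p of 1.3e-07 in limma), while its log2 fold change of 2.84 in 3D did not pass. The 2D samples had 1 to 355 *Prox1* reads, with a lowest level of -1.49 and a median of 5.17 log2 CPM, so that a single low 2D sample carries much of that value, and the 3D samples, with 562 to 745 reads, were all above them. *Foxo1* and *Foxo3*, which are known to act on *Cdkn1b*, had log2 fold changes of 0.33 and 0.50 in 3D and of 0.38 and 0.46 in the internal region, and passed in neither.

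Targets of p53 other than *Cdkn1a* did not move one way. Of 25 measured in the cultures, 1 rose and 3 fell, with a median of -0.11, and of 24 measured in the regions, 3 rose and 5 fell, with a median of -0.20. *Bax*, which promotes apoptosis, fell by 1.05 in 3D (SE 0.18, adjusted p of 0.00383 in limma), and *Ccng1* and *Zmat3* fell by 0.80 (adjusted p of 0.0123 in limma) and 0.77 (adjusted p of 0.00811 in limma), while *Sesn1* rose by 0.72 (adjusted p of 0.0201 in limma). In the internal region *Ddit4*, which is also induced by stress and hypoxia, rose by 1.41 (SE 0.23, adjusted p of 7.8e-05 in limma). *Trp53inp1* and *Btg2* rose there by 1.14 (adjusted p of 0.0154 in limma) and 1.06 (adjusted p of 0.0208 in limma). The 5 that fell there were *Bax* by 0.52 (adjusted p of 0.0315 in limma), *Mdm2* by 0.58 (adjusted p of 0.0405), *Sesn2* by 0.72 (adjusted p of 0.0484), *Phlda3* by 0.47 (adjusted p of 0.0165) and *Gdf15*, which had 1 to 100 reads in internal against 46 to 147 in external samples (adjusted p of 0.00765).

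The proliferation marker *Mki67* fell by 1.34 in 3D (SE 0.17, adjusted p of 0.00119 in limma). It had 23 to 83 reads in internal against 427 to 575 reads in external samples, a log2 fold change of -4.08 (SE 0.31, adjusted p of 1.89e-09 in limma).

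The genes whose pattern was most like that of *Cdkn1b* and *Ccnd1* were sought among 9463 genes of both sets, by Pearson's r over the 15 samples after centring each gene within its set. For *Cdkn1b* these were *Aqp1*, *Gpnmb* and *Tmem140*, with r of 0.972, 0.966 and 0.966. For *Ccnd1* they were *Lmo1*, *Mcm3* and *Anxa3*, with r of 0.965, 0.960 and 0.959. The samples fall into 4 groups, so that these correlations describe mostly the differences between groups, and samples of a set share their normalisation.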

How the data were processed

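RNA of 21EM15 cells was sequenced from the 3′ end in 15 samples, and samples were grouped by their labels. According to the submitters' processing notes and the study's methods, reads were aligned with STAR 2.7.8a to GRCm38.p6 and uniquely mapped sense reads were counted with featureCounts 1.6.0, after which genes of low CPM were removed. The annotation release is not given in the sources used here. The values deposited by the authors are log2 CPM with a prior count, in one table of 11677 genes for the cultures and one of 11299 genes for the regions, normalised separately, so that tests stayed within a table. The tables also hold the authors' log2 fold changes and p-values, which were not used. The authors kept these region samples after a principal component analysis. They left out a further external sample, which differed from the other external ones, and it was not analysed here. That choice was made on expression values, so that the spread of the external group may be understated. RNA of the regions was isolated with another kit than that of the cultures.

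Whole reads were recovered from the spacing of the log2 values (100% of values within 0.02 of a whole read), and were used for shares and depth. Reads copied from 1 molecule by PCR cannot be told apart, so that intervals and limits from reads cover counting error only. The shallowest sample, an external one, had 4044230 reads.

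Differences were tested on log2 CPM with limma 3.58.1 in R 4.3.3, with empirical Bayes moderation, a variance trend and no block, two-sided, and p-values were adjusted by Benjamini-Hochberg across the whole table. The fit was tested on simulated data. Tables were computed in Python 3.11.15 (pandas 2.3.3, numpy 2.4.6, scipy 1.17.1) and figures drawn in matplotlib 3.10.9. Positions are from GENCODE vM21, and promoters are from RefSeq. To find genes of shared sequence, transcript ends of 300 nt were compared in stretches of 50 nt. Alternatives were a block, other priors, filters, pseudocounts and scalings, and leaving out samples.

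The members and lists were chosen with earlier results of these data known. Named genes are all members, and per list and comparison at most 3 genes with the largest fold change among those past an adjusted p of 0.05, without overlap of groups and a mean log2 CPM of 2 or more where higher, together with *Mki67* and the 3 genes most like *Cdkn1b* and *Ccnd1*. *Skp2*, *Foxo1*, *Foxo3*, *Cdkn2d*, *Lin54*, *Sesn1*, *Mdm2*, *Sesn2*, *Phlda3*, *Gdf15* and markers were named outside this rule after their values were seen, as were *Bax*, *Lin9*, *Prox1* and *Ubac1* where a gene named in one comparison is given in the other.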

Additional observations from a re-analysis of the deposited data

Results flagged for a closer look

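*Rbl2* in 3D replicate 2 stood apart from the other 3D samples. Its level was 3.09 log2 CPM (67 reads), while the other 3D samples lay between 3.92 and 3.97 log2 CPM (117 to 123 reads), and the gap took up 0.944 of the range of the group, above the critical value of 0.83 for 4 samples. The groups of 4 samples gave 27 such tests, and chance calls about 1 in 20. In the 2D samples, replicate 2 was also the lowest for *Rbl2*, at 2.40 log2 CPM. The part of this sample in other results was not tested beyond leaving it out.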

How the results depend on the processing

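Of 288 values of the 9 genes under the alternatives, 251 kept their direction and their side of the threshold, 20 lost the call, 3 gained it and 14 changed sign, none of them called. *Cdkn1b* was the gene that rose in 3D under every alternative. The number of genes that fell in 3D was 2, and 1 (*Rbl1*) without the variance trend, with median scaling and without both samples numbered 2 (chosen after seeing the data), 0 at an adjusted p of 0.01 with or without a fold minimum, and 1 to 2 when each sample was left out. Of the 3 that rose in the internal region, 1 (*Rbl2*) was left without the variance trend, and 2 rather than 1 fell with median scaling (*Ccnd1* and *Ccnd2*). The values that changed sign were small. The log2 fold change in 3D of *Ccnd2* was -0.090 to 0.14, of *Ccnd3* -0.044 to 0.12 and of *Cdkn2c* -0.083 to 0.14 when each sample was left out, and that of *Cdkn2c* was -0.097 without both samples numbered 2. In the regions *Ccnd3* ran from -0.082 to 0.071 when each sample was left out and was -0.063 with median scaling.

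Same-numbered samples correlated at 0.227, 0.503, 0.066 and 0.005 in the cultures and at -0.044, -0.065 and -0.063 in the regions. No source used here says whether the numbers pair the samples, and the main fits used no block. In the cultures the samples numbered 1 and 2 correlated positively, so that the numbers may mark something shared there. The block is therefore given as an alternative. With the replicate number as a block, *Cdkn1b* still rose in 3D and *Ccnd1* and *Rbl1* still fell (limma's adjusted p of 0.0401 for *Ccnd1*), while in the regions *Cdkn1b* no longer passed (adjusted p of 0.0618 in limma) and *Ccnd3* was at -0.082. Of the pathway genes, 5 rather than 3 rose in 3D and 10 rather than 17 fell in the internal region under the block. Over all genes, 1343 rather than 1137 rose and 1337 rather than 1080 fell in 3D under it. In the internal region 719 rather than 1083 of all genes rose and 1064 rather than 1370 fell. The planned count models were not run. The deposited unit is log2 CPM, but whole reads were recovered, so that such models could have been fitted. Depth limits *Rbl1*, *Rb1* and *Rbl2* most, with 0 to 94 reads in the region samples where they were lowest.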
